A study of Homo sapiens with 9 samples.

Results

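The antioxidant genes controlled by the transcription factor NRF2 were followed in bulk RNA of 9 orthotopic thyroid tumors of the mouse line TBP3743. They were taken by symbol from the deposited expression table. Of 10 listed symbols, 9 had a row among the 17369 genes of the table: Nfe2l2, Keap1, Slc7a11, Gclc, Gclm, Txnrd1, Srxn1, Nqo1 and Hmox1. G6pdx was not analysed here. All 9 were among the 10263 genes that passed the filter of at least 1 FPKM in at least 3 tumors. FPKM relate fragments to the length of the transcript and the size of the library, so levels may be set side by side between genes.

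Nfe2l2 encodes NRF2. Under resting conditions KEAP1 holds NRF2 in the cytoplasm and hands it to a ubiquitin ligase, so that NRF2 is turned over quickly. Oxidants and electrophiles modify cysteines of KEAP1, NRF2 then accumulates, enters the nucleus with a small MAF partner and switches on enzymes that make and recycle glutathione and thioredoxin, reduce quinones and break down haem. Because this control acts mostly on the protein, the RNA of the target genes is the usual readout of the pathway in tissue.

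TBP3743 is an anaplastic thyroid cancer line from B6129SF1 mice with Braf V600E and loss of Trp53 in thyroid cells, and all 3 groups carry these alterations. The adapted cells came from the tumors of passage round 3 in C57BL/6 mice and so descend from a few selected tumors. In each group 100000 cells were placed in the thyroid of female mice aged 6 weeks and the tumors were taken 14 days later. The original/B6129SF1 group had original cells in B6129SF1 hosts, the adapted/B6129SF1 group adapted cells in B6129SF1 hosts, and the adapted/B6 group adapted cells in C57BL/6 hosts, with 3 tumors each that the labels call biological replicates. The 2 adapted groups share their cells and differ by the host, whereas the adapted/B6129SF1 and original/B6129SF1 groups share the host and differ by the cells. The adapted/B6 group differs from the original/B6129SF1 group in both, which cannot be told apart in that comparison. The paper names a different supplier for each host strain, so strain and supplier cannot be told apart either. The gene symbols are those of the mouse, although the organism field of the labels reads Homo sapiens.

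The RNA came from whole tumors, so fewer cells of a type and less RNA per cell cannot be told apart. Of 8 thyroid follicular markers, the transcription factor Nkx2-1 was present in every tumor at 23.5 to 44.5 FPKM. Tshr reached at most 0.0703 FPKM, Slc5a5 0.142, Foxe1 0.248 and Dio1 0.0602, so these defining thyroid genes were at or near 0 in all 9 tumors. Tg, which encodes thyroglobulin, ranged from 0.0153 to 31.0 FPKM. The epithelial keratin Krt8 lay between 153 and 615 FPKM, while Cdh1, which encodes E-cadherin, stayed between 1.03 and 4.48 FPKM. Muscle was uneven. The 10 skeletal muscle markers, led by Mylpf, took 5.96% of the summed FPKM of adapted/B6129SF1 replicate 3, 1.04% of that of adapted/B6 replicate 1 and no more than 0.128% of that of any other tumor. With these 2 tumors left out together, 0 of the 9 genes passed an adjusted p under 0.05 in any comparison. The sum of all FPKM ranged from 457983 to 540514 per tumor, and the steps between low values gave an approximate depth of 0.962 to 1.35 times that of original/B6129SF1 replicate 1.

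None of the 9 genes differed between groups at the thresholds of the study, which ask for a log2 fold change beyond 1 in either direction together with an adjusted p under 0.05. With limma the call was made for 0 of 9 in adapted/B6129SF1 against original/B6129SF1, where 3.22% of all genes tested were DEGs (differentially expressed genes). It was made for 0 of 9 in adapted/B6 against original/B6129SF1, with a background of 3.09%, and for 0 of 9 in adapted/B6 against adapted/B6129SF1, with a background of 0.0292%. For both adapted groups against original/B6129SF1 the count was again 0 of 9, with a background of 3.39%. An adjusted p under 0.05 with no threshold on the fold change also gave 0 of 9 in each of these 4 comparisons, against 8.28%, 6.75%, 0.0292% and 11.9% of all genes. At an unadjusted p under 0.05 the counts were 2, 2, 0 and 3 of 9, against 26.5%, 24.4%, 6.27% and 29.4% of all genes.

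The median log2 fold change of the 9 genes was 0.04 in adapted/B6129SF1 and 0.18 in adapted/B6 against original/B6129SF1, where the median of all genes was -0.03 in both. The first 2 comparisons and the joint one share the original/B6129SF1 tumors. The tumors of the groups did not overlap for 1 of the 9 genes in adapted/B6129SF1 against original/B6129SF1, where this held for 29.6% of all genes, and for 4 of the 9 in adapted/B6 against original/B6129SF1, where it held for 32.8%. The 2 adapted groups overlapped for all 9 genes, and 11.7% of all genes did not overlap there.

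**Figure D1:**
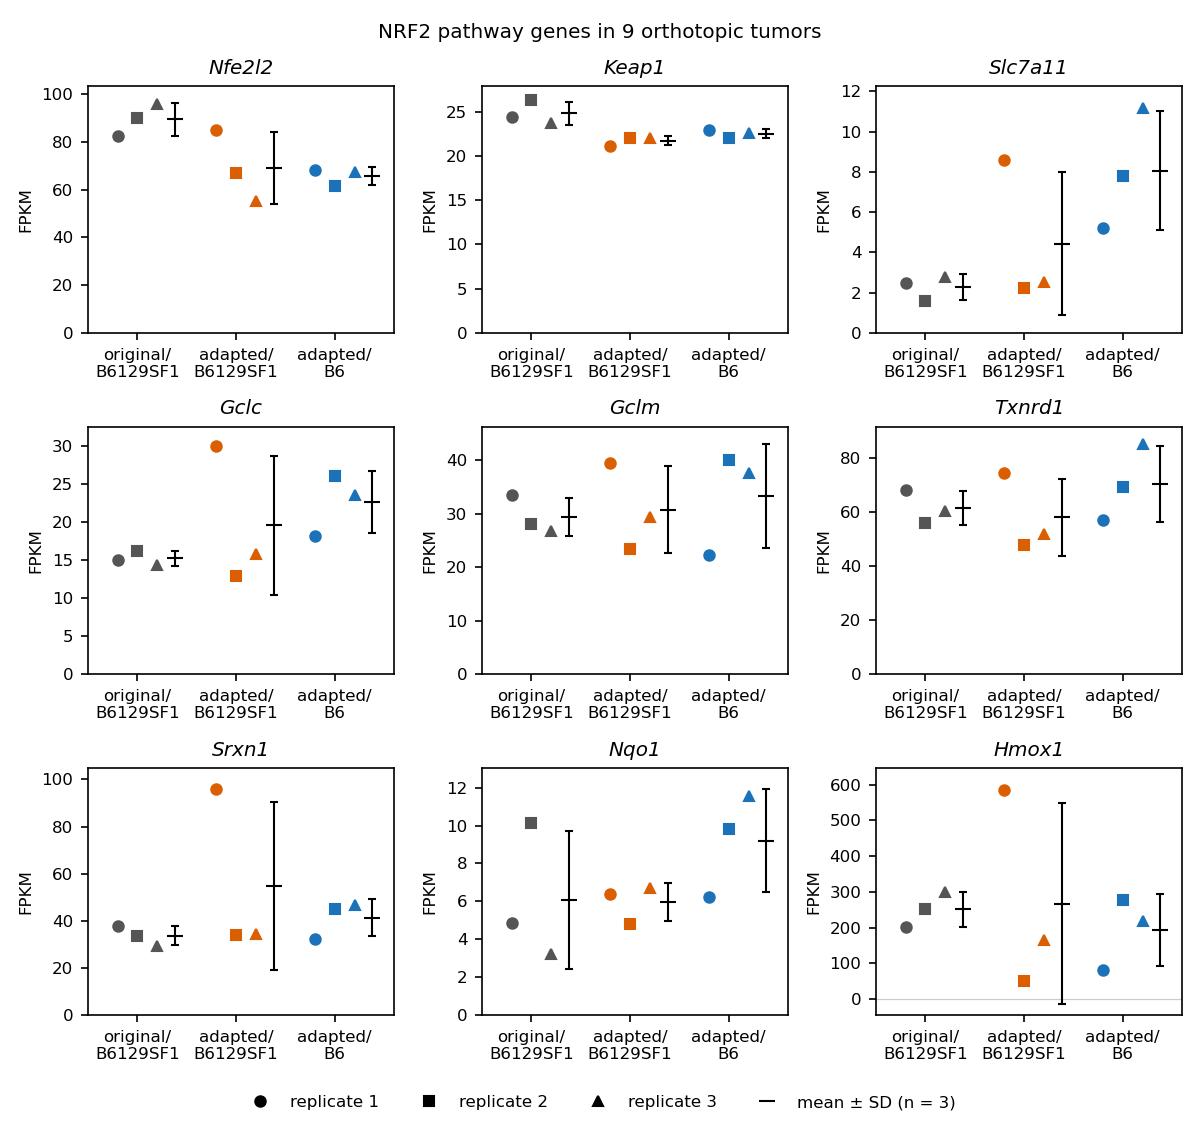
FPKM of the 9 NRF2 pathway genes in each tumor (symbols: replicate number; colours: group), with the mean ± SD of 3 tumors beside the points; each panel has its own axis. Adapted/B6129SF1 replicate 1 stands high for Slc7a11, Gclc, Srxn1 and Hmox1, and for Hmox1 the lower end of the SD bar of the adapted/B6129SF1 group falls below 0.

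The regulators came first. Nfe2l2 stood at 82.3, 90.2 and 96.0 FPKM in the original/B6129SF1 tumors, at 85.1, 67.0 and 55.1 in the adapted/B6129SF1 tumors and at 68.1, 61.5 and 67.5 in the adapted/B6 tumors. Each adapted/B6 tumor was lower than each original/B6129SF1 tumor, while adapted/B6129SF1 replicate 1 lay inside the range of the original/B6129SF1 group. The means were 89.5 ± 6.88, 69.1 ± 15.1 and 65.7 ± 3.64 FPKM (SD, n = 3 per group). The log2 difference from original/B6129SF1 was -0.39 (SE 0.15, limma adjusted p = 0.141) in adapted/B6129SF1 and -0.44 (SE 0.15, limma adjusted p = 0.115) in adapted/B6. For the 6 adapted tumors together it was -0.41 (limma adjusted p = 0.0708), and the exact two-sided permutation test of 6 tumors against 3 gave p = 0.0476, where 0.0238 is the smallest it allows. Between the 2 adapted groups the difference was -0.05, with a 95% interval from -0.39 to 0.29.

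The values for Nfe2l2 depended on single tumors. Without adapted/B6129SF1 replicate 3 the log2 difference in adapted/B6129SF1 was -0.24 (limma adjusted p = 0.297). With adapted/B6129SF1 replicate 1 left out, the adjusted p was 0.0387 in adapted/B6129SF1, 0.0478 in adapted/B6 and 0.018 for both adapted groups, so Nfe2l2 then passed the threshold on p in all 3 comparisons with original/B6129SF1. The log2 differences were then -0.55, -0.44 and -0.49, all under the fold threshold of the study. A model of just the adapted/B6 and original/B6129SF1 groups gave an adjusted p of 0.0398 for the same -0.44.

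Keap1, the inhibitor, varied least of the 9 genes, by 1.25 times between its highest and lowest tumor. It was measured at 24.3, 26.3 and 23.8 FPKM in original/B6129SF1, at 21.1, 22.0 and 22.0 in adapted/B6129SF1 and at 23.0, 22.0 and 22.6 in adapted/B6. All 6 adapted tumors lay under the 3 original/B6129SF1 tumors, a separation that 19.2% of all genes also showed. The gap was small, with a log2 difference of -0.18 (SE 0.08, limma adjusted p = 0.174) in adapted/B6129SF1 and of -0.13 (SE 0.08, limma adjusted p = 0.339) in adapted/B6. For the 6 adapted tumors against 3 the exact permutation test gave p = 0.0238, the smallest it allows, and the limma adjusted p was 0.158.

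Of 12 further regulators of NRF2, all tested, 0 passed an adjusted p under 0.05 in any comparison, and 3, 0, 0 and 2 had an unadjusted p under 0.05, beside 26.5%, 24.4%, 6.27% and 29.4% of all genes. The list holds the ligase parts Cul3 and Rbx1, the small MAF partners, the repressor Bach1 and the autophagy receptor Sqstm1, which binds KEAP1. Sqstm1 was its most abundant gene and had means of 242 ± 48.1, 247 ± 71.4 and 241 ± 36.7 FPKM in original/B6129SF1, adapted/B6129SF1 and adapted/B6 (SD, n = 3).

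Glutathione is built from cystine that the cell imports and from glutamate. Slc7a11 encodes the light chain of the cystine and glutamate exchanger xCT and is known as a target of NRF2 and of the stress factor ATF4. It was read at 2.49, 1.58 and 2.78 FPKM in the original/B6129SF1 tumors, at 8.57, 2.24 and 2.53 in adapted/B6129SF1 and at 5.24, 7.80 and 11.2 in adapted/B6. All 3 adapted/B6 tumors were above all 3 original/B6129SF1 tumors, whereas in adapted/B6129SF1 only replicate 1 was. The group means were 2.29 ± 0.625, 4.44 ± 3.57 and 8.07 ± 2.97 FPKM (SD, n = 3).

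Slc7a11 had the largest difference of the 9 genes, and it did not pass the test. In adapted/B6 the ratio of means to original/B6129SF1 was 3.53 and the log2 difference 1.43 (SE 0.41, 95% interval 0.49 to 2.37, limma adjusted p = 0.0747). The exact permutation test of 3 tumors against 3 gave p = 0.1, which is the smallest it allows. In adapted/B6129SF1 the log2 difference was 0.56 (SE 0.41, limma adjusted p = 0.418), which was 0.06 without replicate 1 and 0.84 without replicate 2 of that group. Between adapted/B6 and adapted/B6129SF1 it was 0.87, with an interval from -0.07 to 1.81. That value was 1.37 without adapted/B6129SF1 replicate 1 and 0.59 without adapted/B6129SF1 replicate 2. The call in adapted/B6 depended on the spread in the third group: with adapted/B6129SF1 replicate 1 left out of the model the same difference of 1.43 had an adjusted p of 0.0169, and a model of just these 2 groups gave an adjusted p of 0.0225. Slc7a11 was then a DEG, and it was the only one of the 9 genes that became one under any setting tried. In adapted/B6 against original/B6129SF1 its limma adjusted p was under 0.05 in 2 of 19 alternatives and reached 0.231. The log2 difference ranged over them from 0.82, under the fold threshold, to 1.75.

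Gclc and Gclm encode the catalytic and the modifier subunit of glutamate-cysteine ligase, the enzyme of the rate-limiting step. Gclc reached 15.0, 16.2 and 14.4 FPKM in original/B6129SF1, 30.0, 12.9 and 15.8 in adapted/B6129SF1 and 18.1, 26.1 and 23.6 in adapted/B6. Its adapted/B6 tumors all lay above the original/B6129SF1 tumors, and its adapted/B6129SF1 tumors held both the highest and the lowest value of the series. The log2 difference of Gclc was 0.53 (SE 0.27, limma adjusted p = 0.267) in adapted/B6 and 0.26 (SE 0.27, limma adjusted p = 0.571) in adapted/B6129SF1, the latter turning to -0.0833 without replicate 1. Gclm was found at 33.4, 28.0 and 26.8 FPKM in original/B6129SF1, at 39.5, 23.4 and 29.3 in adapted/B6129SF1 and at 22.2, 40.1 and 37.6 in adapted/B6. For Gclm every pair of groups overlapped, and its differences from original/B6129SF1 were 0.04 and 0.14 on the log2 scale (SE 0.25), with 95% intervals from -0.52 to 0.60 and from -0.42 to 0.69.

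In the thioredoxin branch, neither Txnrd1 nor Srxn1 passed the test. Txnrd1, which encodes the cytosolic thioredoxin reductase, was at 68.2, 55.7 and 60.4 FPKM in original/B6129SF1, 74.2, 47.8 and 51.9 in adapted/B6129SF1 and 56.9, 69.1 and 85.0 in adapted/B6. Srxn1, which encodes the sulfiredoxin that repairs over-oxidised peroxiredoxins, was at 37.6, 33.6 and 29.5 FPKM in original/B6129SF1, 96.0, 34.1 and 34.2 in adapted/B6129SF1 and 32.2, 45.0 and 46.8 in adapted/B6. The groups overlapped for both genes in every comparison, and adapted/B6129SF1 replicate 1 stood alone at the top for Srxn1. For Srxn1 in adapted/B6129SF1 the ratio of means to original/B6129SF1 was 1.63, with a log2 difference of 0.52 (SE 0.36, limma adjusted p = 0.392), which was 0.03 without that tumor. For Txnrd1 the log2 differences from original/B6129SF1 were -0.10 in adapted/B6129SF1 and 0.18 in adapted/B6 (SE 0.19 each). The value in adapted/B6 was 0.03 without adapted/B6 replicate 3 and 0.32 without adapted/B6 replicate 1.

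Nqo1, a quinone reductase often used as the marker of NRF2 activity, was weakly expressed, with 4.86, 10.1 and 3.21 FPKM in original/B6129SF1, 6.39, 4.83 and 6.71 in adapted/B6129SF1 and 6.22, 9.82 and 11.6 in adapted/B6. Original/B6129SF1 replicate 2 stood with the upper adapted/B6 tumors, and the groups overlapped throughout. The log2 difference from original/B6129SF1 was 0.09 (SE 0.34, limma adjusted p = 0.893) in adapted/B6129SF1 and 0.61 (SE 0.34, 95% interval -0.17 to 1.39, limma adjusted p = 0.316) in adapted/B6. Single original/B6129SF1 tumors moved both values: without replicate 2 they were 0.48 and 1.00, and without replicate 3 they were -0.22 and 0.30.

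Hmox1 encodes the inducible haem oxygenase, which frees iron and makes biliverdin from haem, and it is also controlled by the repressor BACH1 and strongly expressed in macrophages that clear red cells. It had the highest level of the 9 genes and the widest spread: 202, 251 and 301 FPKM in original/B6129SF1, 586, 50.1 and 166 in adapted/B6129SF1 and 81.2, 277 and 219 in adapted/B6. The adapted/B6129SF1 tumors held both the highest and the lowest value, 11.7 times apart. The mean of adapted/B6129SF1 was 1.06 times that of original/B6129SF1, yet the mean of its logs was lower, with a log2 difference of -0.54 (SE 0.79, 95% interval -2.34 to 1.25, limma adjusted p = 0.69). In adapted/B6 the difference was also -0.54 (SE 0.79, limma adjusted p = 0.721), with -0.0123 without adapted/B6 replicate 1 and -0.89 without replicate 2. In adapted/B6129SF1 it was -1.43 without adapted/B6129SF1 replicate 1 and 0.33 without replicate 2. Between adapted/B6 and adapted/B6129SF1 the difference was 0.00 with an interval from -1.79 to 1.80, turning to -0.0113 with a pseudocount of 5 FPKM. With 3 tumors a group, intervals this wide leave the size of an Hmox1 difference undetermined.

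**Figure D2:**
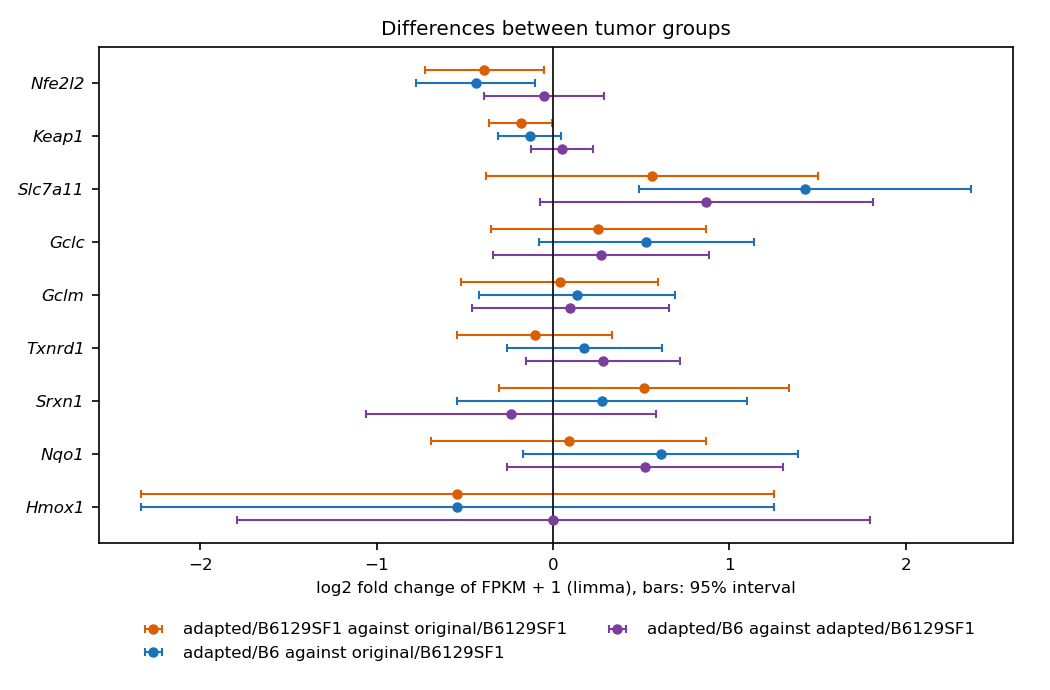
Log2 fold change of FPKM + 1 for each gene (rows) in 3 comparisons (colours), with 95% intervals from limma. The interval of Slc7a11 in adapted/B6 against original/B6129SF1, 0.49 to 2.37, lies farthest above 0, the intervals of Nfe2l2 in both comparisons with original/B6129SF1 and of Keap1 in adapted/B6129SF1 lie below 0, and no gene passed an adjusted p under 0.05.

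The 7 target genes other than Nfe2l2 and Keap1 were also followed from tumor to tumor within each group. Adapted/B6129SF1 replicate 1 was the highest tumor of its group for 6 of the 7 genes, all but Nqo1, a position it held for 37.4% of all genes. Adapted/B6129SF1 replicate 2 was the lowest of its group for 7 of 7, against 28.6% of all genes, and adapted/B6 replicate 1 was the lowest of its group for 7 of 7, against 37.0%. This pattern was seen in the values first and has no test.

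In adapted/B6129SF1 replicate 1, Hmox1 was 5.42 times the mean of the other 2 tumors of its group, Slc7a11 3.59 times, Srxn1 2.81 times and Gclc 2.09 times. Gclm, Txnrd1 and Nqo1 were nearer to them, at 1.5, 1.49 and 1.11 times, as were the regulators Nfe2l2 at 1.39 times and Keap1 at 0.959 times. In adapted/B6129SF1 replicate 2 the 7 targets ranged from 0.133 times for Hmox1 to 0.758 times for Txnrd1. In adapted/B6 replicate 1 they ranged from 0.328 times for Hmox1 to 0.739 times for Txnrd1, while Nfe2l2 was at 1.06 and Keap1 at 1.03 times.

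**Figure D3:**
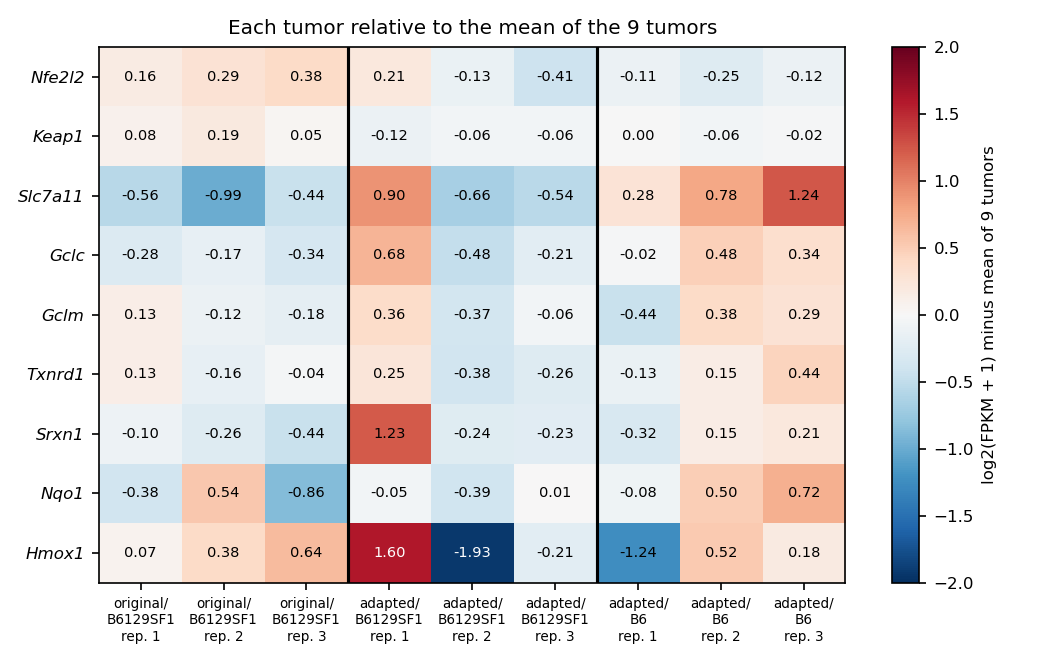
Log2(FPKM + 1) of each gene (rows) in each tumor (columns) minus its mean over the 9 tumors; red is above and blue below that mean, and black lines divide the groups. In adapted/B6129SF1 replicate 1 Hmox1 is 1.60 and Srxn1 1.23 above the mean, and in adapted/B6129SF1 replicate 2 Hmox1 is at -1.93. The row of Keap1 is the palest, and Nfe2l2, from -0.41 to 0.38, is about as pale as the targets Gclm and Txnrd1.

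The coefficient of variation was larger in adapted/B6129SF1 than in original/B6129SF1 for 6 of the 7 targets, against 55.4% of all genes, and larger in adapted/B6 than in original/B6129SF1 for 6 of the 7, against 41.1%. The exception both times was Nqo1, at 59.6% in original/B6129SF1. For Hmox1 it was 19.6% in original/B6129SF1, 105% in adapted/B6129SF1 and 52.3% in adapted/B6, and for Gclc 6.31%, 46.8% and 18.0%.

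Markers of other cell types were read in the same tumors. Of 11 macrophage markers 10 were in the table, none at 0 in every tumor, with Lyz2 the most abundant and Spic, at no more than 0.894 FPKM, the weakest. Their summed level was 2377, 3208 and 2893 FPKM in original/B6129SF1, 4064, 3158 and 4636 in adapted/B6129SF1 and 3795, 1983 and 3871 in adapted/B6. Adapted/B6129SF1 replicate 2, lowest in the targets, was lowest of its group in these markers too. As shares of the summed FPKM the markers took 0.506%, 0.598% and 0.611% in original/B6129SF1, 0.862%, 0.663% and 0.858% in adapted/B6129SF1 and 0.829%, 0.393% and 0.780% in adapted/B6. Replicates 1 and 3 of adapted/B6129SF1 thus stood close together by share, with replicate 3 the higher by sum. Adapted/B6 replicate 1, lowest of its group in the targets, was the highest in the markers by share and lay just under replicate 3 by sum. The 4 of 9 erythroid markers in the table, led by Hba-a1, summed to 116 FPKM in adapted/B6 replicate 1 and to at most 26.1 in the other tumors, with the red cell anion exchanger gene Slc4a1 at a median of 0. The muscle markers summed to 32205 FPKM in adapted/B6129SF1 replicate 3, to 4747 in adapted/B6 replicate 1 and to 605 in adapted/B6129SF1 replicate 1. The 8 fibroblast markers, led by Col3a1, summed to 980, 1257 and 985 FPKM in original/B6129SF1, to 1241, 1088 and 1589 in adapted/B6129SF1 and to 1189, 1450 and 1285 in adapted/B6. The 6 endothelial markers, led by Pecam1, summed to between 52.8 and 83.9 FPKM in the 9 tumors. The part of these cells in the levels of the targets was not tested.

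Ordered by the mean over all 9 tumors, Hmox1 stood at 237 ± 155 FPKM, Nfe2l2 at 74.8 ± 14, Txnrd1 at 63.2 ± 11.9, Srxn1 at 43.2 ± 20.6, Gclm at 31.1 ± 6.78, Keap1 at 23.0 ± 1.58, Gclc at 19.1 ± 5.97, Nqo1 at 7.08 ± 2.82 and Slc7a11 at 4.93 ± 3.45 (SD, n = 9). Neighbours in this order overlapped in range except at 1 step, between Gclc, whose lowest tumor had 12.9 FPKM, and Nqo1, whose highest had 11.6. Hmox1 exceeded 97.3% of the genes tested and Slc7a11 20.6%. The group means of original/B6129SF1 and of adapted/B6129SF1 kept the same order. In adapted/B6 Txnrd1 (mean 70.3 FPKM) stood above Nfe2l2 (65.7) and Gclc (22.6) just above Keap1 (22.5).

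As a description across the 9 tumors, which share groups and cell mixtures, Pearson's r of log2 values was 0.88 between Slc7a11 and Gclc, 0.83 between Gclc and Srxn1, and 0.82 between Gclm and Txnrd1. These were the highest among pairs of the 7 targets, and the lowest were 0.19 between Nqo1 and Hmox1 and 0.27 between Nqo1 and Srxn1. Nfe2l2 itself had r between -0.36 with Nqo1 and 0.46 with Hmox1 among the 7 targets. Among 8121 genes with a mean of at least 5 FPKM the closest to Slc7a11 was Inhbb (r = 0.96), to Gclc Zeb1 (r = 0.97), to Srxn1 Ncoa4 (r = 0.96), to Nfe2l2 Spry2 (r = 0.97) and to Hmox1 Gtpbp6 (r = 0.88).

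Further enzymes of the same pathways were read from lists. Of 30 other genes known as NRF2 targets, 28 were in the table and 24 were tested. In adapted/B6129SF1 against original/B6129SF1, 0 of the 24 rose and 3 fell at an adjusted p under 0.05, where 4.37% of all genes were higher and 3.92% lower. For adapted/B6 the counts were 0 that rose and 2 that fell, with backgrounds of 3.99% and 2.77%. The median log2 fold change of the list was 0.00 and 0.03, beside -0.03 for all genes in both. Between the adapted groups 0 of 24 passed, and 4 had an unadjusted p under 0.05, beside 6.27% of all genes.

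The clearest fall was in Akr1b8, an aldo-keto reductase that clears reactive aldehydes. It was at 164, 192 and 193 FPKM in original/B6129SF1, at 101, 91.0 and 67.0 in adapted/B6129SF1 and at 93.1, 109 and 104 in adapted/B6. All adapted tumors were lower than all original/B6129SF1 tumors. The log2 fold change was -1.09 (SE 0.15, limma adjusted p = 0.00736) in adapted/B6129SF1, where Akr1b8 was a DEG, and -0.83 (SE 0.15, limma adjusted p = 0.017) in adapted/B6. The adjusted p in adapted/B6129SF1 stayed between 0.00602 and 0.0367 over 20 alternatives, but the log2 fold change was -0.92, short of a DEG, without adapted/B6129SF1 replicate 3, alone or together with the other muscle-rich tumor. In adapted/B6 it rose above 0.05 without original/B6129SF1 replicate 2 (0.052) or replicate 3 (0.0691) and without adapted/B6 replicate 1 (0.0593) or replicate 3 (0.0696). For both adapted groups together the log2 fold change was -0.96 (SE 0.13, limma adjusted p = 0.00372), and the adjusted p stayed under 0.05 in all 19 alternatives. Akr1b8 has close relatives among the aldo-keto reductases, and how shared reads were assigned is not given in the sources used here.

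Gsr encodes glutathione reductase, which returns oxidised glutathione to its reduced form with NADPH. Its level was 42.7, 40.2 and 36.9 FPKM in original/B6129SF1, 24.0, 23.6 and 26.1 in adapted/B6129SF1 and 24.4, 31.6 and 30.8 in adapted/B6. The original/B6129SF1 tumors were again the 3 highest. Gsr fell by 0.68 on the log2 scale in adapted/B6129SF1 (SE 0.12, limma adjusted p = 0.0129), a call that held in all 20 alternatives, with 0.0487 as the highest adjusted p. In adapted/B6 the change was -0.46 (SE 0.12, limma adjusted p = 0.0499), which passed the threshold in 2 of 20 alternatives and was -0.35 (limma adjusted p = 0.121) without both muscle-rich tumors. For both adapted groups together it was -0.57 (SE 0.10, limma adjusted p = 0.00985).

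Akr1b3, the aldose reductase, was 116, 148 and 125 FPKM in original/B6129SF1, 69.1, 81.8 and 91.7 in adapted/B6129SF1 and 83.8, 70.4 and 92.5 in adapted/B6. Every adapted tumor was below every original/B6129SF1 tumor. The log2 fold change was -0.67 (limma adjusted p = 0.0294) in adapted/B6129SF1 and -0.65 (limma adjusted p = 0.0367) in adapted/B6, and these passed in 13 and 10 of 20 alternatives. The adjusted p was above 0.05 in both comparisons when any original/B6129SF1 tumor was left out, with 0.0562 to 0.0814 in adapted/B6129SF1 and 0.0618 to 0.0957 in adapted/B6. It was above 0.05 as well without adapted/B6129SF1 replicate 1 or 2 in adapted/B6129SF1, and without adapted/B6129SF1 replicate 2 or any adapted/B6 tumor in adapted/B6. For both adapted groups together the limma adjusted p of Akr1b3 was 0.0143. It passed in 18 of 19 alternatives and reached 0.0537.

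By role, of 7 genes of glutathione synthesis and use that were tested, 0 rose and 2 fell in adapted/B6129SF1 (Gsr and Gsto1) and 0 rose and 1 fell in adapted/B6 (Gsr), each against original/B6129SF1. Of 17 quinone, aldehyde and xenobiotic enzymes and exporters tested, 0 rose and 3 fell in adapted/B6129SF1 and 0 rose and 2 fell in adapted/B6, among them Akr1b8 and Akr1b3 in both. Of all genes, 4.37% were higher and 3.92% lower in adapted/B6129SF1, and 3.99% were higher and 2.77% lower in adapted/B6. The median log2 fold change of this last list was -0.14 in both comparisons, and that of the glutathione list -0.05 and 0.01, beside -0.03 for all genes. These lists overlap with that of the other NRF2 targets, which also holds Gsr, Akr1b8 and Ugdh. The falls of these genes are thus counted in more than 1 list and are not separate results.

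Other falls were nearer to the threshold. Ugdh, which makes the sugar for glucuronidation, fell in adapted/B6129SF1 (-0.50, limma adjusted p = 0.0386), and the thioltransferase Gsto1 fell in adapted/B6129SF1 (-0.80, limma adjusted p = 0.045). The peroxiredoxin Prdx2 fell in adapted/B6 (-0.43, limma adjusted p = 0.0499). These calls were kept in 10, 6 and 2 of 20 alternatives. For both adapted groups together against original/B6129SF1 the limma adjusted p was 0.0242 for Gsto1 and 0.0267 for Prdx2. Those values passed in 17 and 13 of 19 alternatives. Ugdh did not pass in the joint comparison (limma adjusted p = 0.0609), nor in any of its alternatives. Of the 10 thioredoxins and peroxiredoxins tested, Prdx2 was the only one that passed in any comparison, namely in adapted/B6 and in both adapted groups against original/B6129SF1, where 6.75% and 11.9% of all genes passed.

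**Figure D4:**
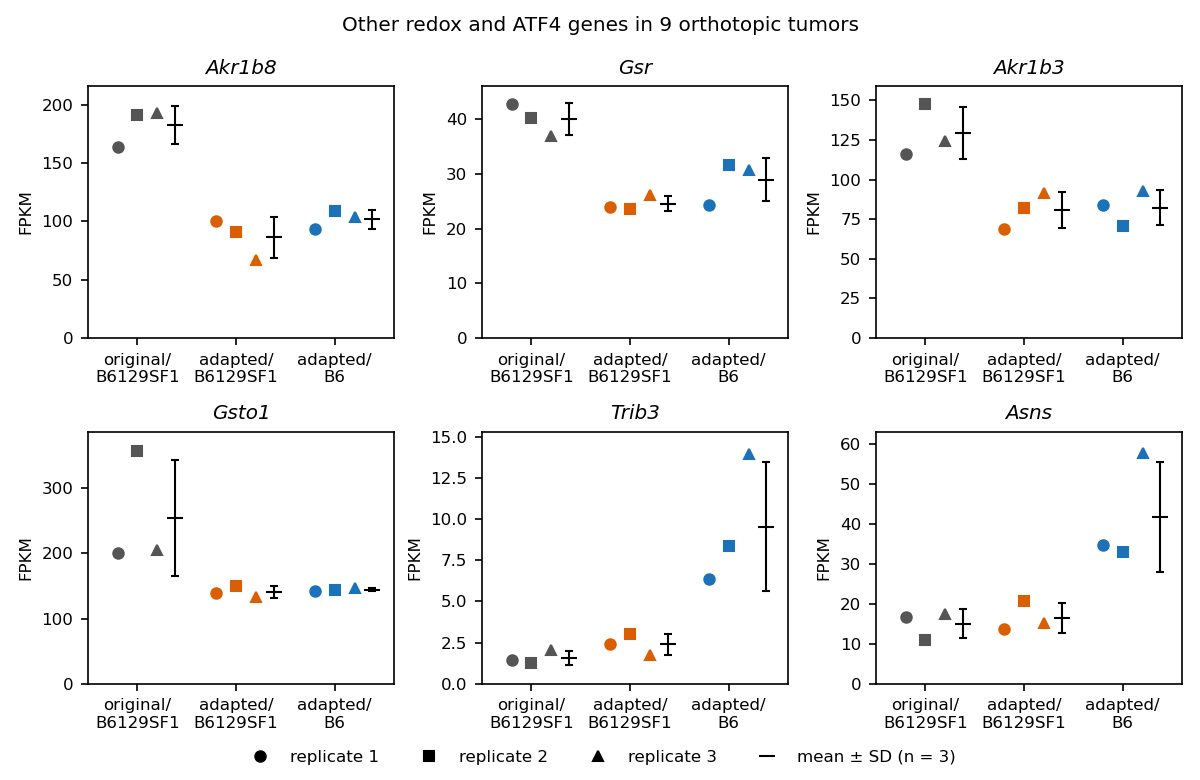
FPKM of 4 redox genes and 2 ATF4 target genes in each tumor (symbols: replicate number; colours: group), with the mean ± SD of 3 tumors beside the points. Akr1b8, Gsr, Akr1b3 and Gsto1 are highest in the 3 original/B6129SF1 tumors, and Trib3 and Asns are highest in the 3 adapted/B6 tumors.

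The glutathione transferases, which attach glutathione to electrophiles, moved both ways. The list has 18 genes, of which 12 were tested. Gstt1 rose in adapted/B6129SF1 from 1.55 ± 0.398 to 7.02 ± 3.35 FPKM (SD, n = 3), a log2 fold change of 1.59 (SE 0.30, limma adjusted p = 0.0195), and in adapted/B6 it was 4.09 ± 1.60 FPKM (log2 fold change 0.96, limma adjusted p = 0.0959). The adjusted p in adapted/B6129SF1 was 0.052 without original/B6129SF1 replicate 2 and 0.0716 without replicate 3. Over 19 alternatives the log2 fold change of Gstt1 in adapted/B6129SF1 ranged from 0.84, under the fold threshold, to 2.04. Jointly, over both adapted groups against original/B6129SF1, where 6.06% of all genes were higher and 5.84% lower, Gstt1 (1.27, limma adjusted p = 0.0182) and Gstm2 (1.44, limma adjusted p = 0.0392) rose and the microsomal Mgst3 fell (-1.09, limma adjusted p = 0.0478). Over the alternatives of the joint comparison the adjusted p reached 0.073 for Gstt1, 0.14 for Gstm2 and 0.14 for Mgst3. Gstm2 belongs to a family of near-identical genes, so its values are uncertain. The most abundant member, Gstm1, spread from 86.1 to 308 FPKM within original/B6129SF1 alone.

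The supply of NADPH and the handling of haem and iron gave no call. Of 5 NADPH genes tested, led by Taldo1, and 9 haem and iron genes, led by the ferritin chain Fth1, 0 passed an adjusted p under 0.05 in any comparison. At an unadjusted p under 0.05 the counts were 0, 0, 1 and 0 for NADPH supply and 1, 0, 1 and 1 for haem and iron, where the shares of all genes were 26.5%, 24.4%, 6.27% and 29.4%. Fth1 had means of 3429 ± 821, 3856 ± 1071 and 3644 ± 601 FPKM in original/B6129SF1, adapted/B6129SF1 and adapted/B6 (SD, n = 3).

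Slc7a11 is shared with the amino acid stress response, in which ATF4 raises genes for amino acid synthesis and uptake, and 10 genes of that response were read beside it. Of these, 2 rose and 0 fell in adapted/B6 against original/B6129SF1 at an adjusted p under 0.05, where 3.99% of all genes were higher and 2.77% lower. Trib3, a pseudokinase induced by ATF4, was at 1.47, 1.24 and 2.06 FPKM in original/B6129SF1, 2.42, 3.03 and 1.73 in adapted/B6129SF1 and 6.34, 8.38 and 13.9 in adapted/B6. Asns, the asparagine synthetase, was at 16.8, 10.9 and 17.4 FPKM in original/B6129SF1, 13.6, 20.7 and 15.3 in adapted/B6129SF1 and 34.9, 33.0 and 57.8 in adapted/B6. For both genes the 3 adapted/B6 tumors were above the 6 others.

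Trib3 rose by 1.97 on the log2 scale in adapted/B6 against original/B6129SF1 (SE 0.27, limma adjusted p = 0.00515), a call that held in all 19 alternatives. Its size over them ranged from 1.11 to 2.46. Asns rose by 1.40 (SE 0.26, limma adjusted p = 0.0169), with 0.0536 without adapted/B6 replicate 3 and under 0.05 in the other 19 alternatives. In adapted/B6129SF1 against original/B6129SF1, 0 of the 10 genes passed an adjusted p under 0.05 and 2 an unadjusted p under 0.05, beside 8.28% and 26.5% of all genes. There Trib3 differed by 0.38 and Asns by 0.14, the latter turning to -0.0664 without original/B6129SF1 replicate 2.

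Between the hosts, in adapted/B6 against adapted/B6129SF1, the log2 difference was 1.59 for Trib3 (SE 0.27, 95% interval 0.99 to 2.20, limma adjusted p = 0.293) and 1.26 for Asns (SE 0.26, 95% interval 0.68 to 1.85, limma adjusted p = 0.326). Both missed the adjusted threshold, which 3 of all 10263 genes passed in this comparison. Of the 10 genes 8 had an unadjusted p under 0.05, against 6.27% of all genes. Upward differences were seen in 9 of the 10, beside 5284 of all 10263 genes, with a median log2 fold change of 0.72 against 0.01. The 1 gene that was lower was Ddit4, an inhibitor of mTORC1, with means of 58.1 FPKM in adapted/B6129SF1 and 23.7 in adapted/B6 (log2 difference -1.34, limma adjusted p = 0.486). It was among the 8 with an unadjusted p under 0.05, so these were not all upward. Ddit4, like Psat1 (1.04) and Chac1 (1.17), was named here after its value was seen. Atf4 itself had means of 155, 137 and 164 FPKM in original/B6129SF1, adapted/B6129SF1 and adapted/B6. Slc7a11 lay on the same side, with its difference of 0.87 and overlapping groups.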

How the data were processed

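RNA of 9 whole tumors was compared in 3 groups of 3, assigned from the labels. The deposited values are FPKM that the authors made with Cuffnorm. The submitters' processing notes also name FastQC, HISAT2 and Cuffdiff and the build mm10. The annotation and the treatment of shared reads are not given in the sources used here. FPKM are not counts, so no count test was used.

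Values were taken as log2(FPKM + 1), which understates changes of weakly expressed genes. A gene needed 1 FPKM or more in 3 or more tumors, which left 10263 of 17369. These entered limma 3.58.1 under R 4.3.3 (lmFit, eBayes with trend, two-sided) in one model of 3 group means, with Benjamini-Hochberg adjustment over all genes. DEGs were genes with a log2 fold change beyond 1 in either direction whose adjusted p was under 0.05. Exact two-sided permutation tests (Python 3.11.15) of 3 tumors against 3 cannot go below 0.1. The fit was also run on simulated data, and no result here rests on that run. At most 0.0487% of genes tested had equal values in any pair of tumors.

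The genes and lists were chosen with earlier results of these data known, so a list's counts are not independent evidence. Named genes are all members, the genes of each pathway list with an adjusted p under 0.05, the most abundant gene of each list, markers that check the tissue, and the genes of highest correlation. Alternatives were other pseudocounts, filters, scalings and model settings, a replicate block, and each tumor left out. Absolute depth is unknown, and the number of tumors limits the precision.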

Additional observations from a re-analysis of the deposited data

How the results depend on the processing

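The count of DEGs among the 9 NRF2 genes stayed at 0 in every comparison and setting except adapted/B6 against original/B6129SF1, where it was 1 (Slc7a11) in a model of just the groups compared and 0 to 1 with each tumor left out. The counts of DEGs among all genes moved more. With no threshold on the fold change they were 850 in adapted/B6129SF1, 693 in adapted/B6 and 1221 for both adapted groups against original/B6129SF1. With genes of a mean of at least 5 FPKM they were 219, 199 and 226, and 0 in adapted/B6 against adapted/B6129SF1. With a pseudocount of 5 FPKM they were 122, 130 and 138, and 1 in adapted/B6 against adapted/B6129SF1. In that last comparison, with 3 DEGs as reported, no filter on low values gave 1, only the groups compared 0 and the replicate block 0. With each tumor left out in turn the counts ranged from 150 to 350 in adapted/B6129SF1, from 154 to 343 in adapted/B6, from 0 to 6 in adapted/B6 against adapted/B6129SF1 and from 237 to 370 for both adapted groups. The lowest came without original/B6129SF1 replicate 3 or adapted/B6 replicate 3, the highest without adapted/B6129SF1 replicate 1. For both adapted groups, a model of only the groups compared is the model reported.

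Among the 9 genes, 378 of 383 single results under other settings kept their direction and side of the threshold, and 300 of 324 with a tumor left out did. Hmox1 in adapted/B6 against adapted/B6129SF1, at 0.00, turned to -0.0113 with a pseudocount of 5 FPKM, -0.0101 with median-of-ratios scaling and -0.00617 with upper-quartile scaling. With tumors left out, log2 differences that changed sign ranged as follows. In adapted/B6129SF1 against original/B6129SF1, Gclc ranged from -0.0833 to 0.495, Gclm from -0.153 to 0.211, Txnrd1 from -0.293 to 0.019, Nqo1 from -0.223 to 0.479, Hmox1 from -1.43 to 0.33 and Asns from -0.0664 to 0.259. Against original/B6129SF1, Gclm in adapted/B6 ranged from -0.0161 to 0.396. In adapted/B6 against adapted/B6129SF1, Nfe2l2 ranged from -0.199 to 0.11, Srxn1 from -0.483 to 0.251, Gclm from -0.075 to 0.358 and Hmox1 from -0.871 to 0.89. For both adapted groups, Gclm ranged from -0.00846 to 0.217 and Txnrd1 from -0.0576 to 0.114. The cause was not tested.

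Same-numbered tumors are different animals. Their deviations from the group means had mean correlations of -0.0976, 0.161 and -0.0124 in the 3 pairs of groups, and 0, 3 and 2 of 6 tumors correlated best with their own number, so the numbers were not taken as a pairing. With the replicate block the DEG counts were 242 in adapted/B6129SF1, 245 in adapted/B6, 0 in adapted/B6 against adapted/B6129SF1 and 309 for both adapted groups, and 0 of the 9 genes were called.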

Other observations

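Genes that make or remove oxidants outside the NRF2 lists were read as well. Of 6 subunits of the phagocyte NADPH oxidase, which makes superoxide in macrophages and neutrophils, 5 were tested. In adapted/B6129SF1 against original/B6129SF1, Cyba rose by 0.53 on the log2 scale (SE 0.13, limma adjusted p = 0.046). There 4.37% of all genes were higher at an adjusted p under 0.05. All 3 adapted/B6129SF1 tumors lay above the 3 original/B6129SF1 tumors for Cyba. Of the 5 genes, 4 had an unadjusted p under 0.05, beside 26.5% of all genes. All 5 differed upward, beside 4695 of all 10263 genes, with a median of 0.67 against -0.03 for all genes. The Cyba call was kept in 6 of 20 alternatives, and the adjusted p was 0.134 without original/B6129SF1 replicate 1 and 0.135 without both muscle-rich tumors. In adapted/B6 Cyba differed by 0.48 (limma adjusted p = 0.0691, again all 3 tumors above the original/B6129SF1 tumors), and for both adapted groups together it rose by 0.50 (limma adjusted p = 0.0273). For adapted/B6 against original/B6129SF1, 0 of 5 passed an adjusted p under 0.05, 1 had an unadjusted p under 0.05, beside 24.4% of all genes, and the median was 0.25. In adapted/B6 against adapted/B6129SF1 all 5 differed downward, beside 4979 of all 10263 genes, with a median of -0.62. Of the 5, 0 passed the adjusted threshold and 2 had an unadjusted p under 0.05, beside 6.27% of all genes. Of 9 macrophage markers tested, 0 passed an adjusted p under 0.05 in any comparison by limma, where 8.28%, 6.75%, 0.0292% and 11.9% of all genes did. Against original/B6129SF1 their median log2 fold change was 0.52 in adapted/B6129SF1, with 7 upward, 2 downward and 2 at an unadjusted p under 0.05, and 0.15 in adapted/B6, with 6 upward, 3 downward and 0 at an unadjusted p under 0.05, beside 26.5% and 24.4% of all genes. Of all 10263 genes, 4695 differed upward in adapted/B6129SF1 and 4731 in adapted/B6. In adapted/B6 against adapted/B6129SF1 these markers moved the same way as the oxidase genes, with 1 upward, 8 downward and a median of -0.33. There 1 had an unadjusted p under 0.05, beside 6.27% of all genes.

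The 8 leukocyte markers, led by Laptm5, summed to 178, 173 and 207 FPKM in original/B6129SF1, to 244, 318 and 325 in adapted/B6129SF1 and to 335, 191 and 334 in adapted/B6. Against original/B6129SF1 the median log2 fold change of the 6 that were tested was 0.77 in adapted/B6129SF1 and 0.71 in adapted/B6. In these comparisons 0 of 6 passed an adjusted p under 0.05 by limma, and 5 and 4 had an unadjusted p under 0.05, beside 26.5% and 24.4% of all genes. For both adapted groups together 1 of 6 passed, the integrin chain gene Itgb2 (limma adjusted p = 0.0336), where 6.06% of all genes were higher. Between the adapted groups their median was -0.02. The part of macrophages and other leukocytes in the oxidase genes was not tested.

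Of 5 superoxide and peroxide enzymes, with Sod1 the most abundant, 0 passed in any comparison by limma, and 0 had an unadjusted p under 0.05, where 26.5%, 24.4%, 6.27% and 29.4% of all genes did in the 4 comparisons. The epithelial keratin Krt8 fell in both adapted groups, by 1.32 on the log2 scale in adapted/B6129SF1 (limma adjusted p = 0.0189) and by 1.12 in adapted/B6 (limma adjusted p = 0.0346). It was the only one of 6 epithelial markers tested that passed, where 3.92% and 2.77% of all genes were lower. In adapted/B6129SF1 0 of the 6 differed upward and 6 downward, with a median log2 fold change of -0.39. In adapted/B6 3 differed upward and 3 downward, with a median of -0.07. Of all 10263 genes, 5568 differed downward in adapted/B6129SF1 and 5532 in adapted/B6. Of 8 fibroblast markers tested, 0 passed in adapted/B6129SF1 by limma and 3 had an unadjusted p under 0.05, beside 26.5% of all genes. In adapted/B6 against original/B6129SF1, 1 of the 8 rose, where 3.99% of all genes were higher: Thy1, a surface glycoprotein gene, from 57.1 ± 14 to 165 ± 20 FPKM (SD, n = 3, log2 fold change 1.54, limma adjusted p = 0.00527). Its mean in adapted/B6129SF1 was 92.8 ± 21.7 FPKM (log2 fold change 0.70, limma adjusted p = 0.0786). Thy1, like Itgb2, was named here after its value was seen, and which cells carried its RNA was not tested. In adapted/B6 5 of the 8 fibroblast markers differed upward and 3 downward. The most abundant, Col3a1, had means of 374 FPKM in original/B6129SF1 and 303 in adapted/B6. The median log2 fold change of the fibroblast list was 0.33 in adapted/B6129SF1 and 0.40 in adapted/B6. Of 6 endothelial markers 0 passed an adjusted p under 0.05 in any comparison by limma, where 8.28%, 6.75%, 0.0292% and 11.9% of all genes did. Against original/B6129SF1, 0 in adapted/B6129SF1 and 1 in adapted/B6 had an unadjusted p under 0.05, beside 26.5% and 24.4% of all genes. The medians were 0.30 and 0.27.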
